A study of Macaca mulatta with 17 samples.

Results

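The effect of gestational age on the fetal uterus was measured between control female rhesus macaques at gestational day (GD) 165 and at GD100. Members were the arrays whose sample names mark a late or an early control, which gave 9 of the 17 arrays of the series, 4 at GD165 and 5 at GD100. Dams of all 9 fetuses were given the vehicle, ethanol on a fruit treat, from GD50 for the early group and from GD100 for the late group. The remaining 8 arrays came from fetuses of the same ages, 5 at GD100 and 3 at GD165. Their dams were given bisphenol A (BPA) at 400 µg per kg per day in that vehicle. These 8 arrays serve for contrast, and they also enter the shared estimate of spread behind the p values. The late animals were between GD165 and GD168. Each array carried the RNA of 1 fetus, from one side of a uterus divided lengthwise from fundus to cervix, so muscle, stroma, epithelium, vessels and blood were measured together. The p values therefore measure the spread between animals. The GD100 fetuses were delivered by caesarean section and the GD165 animals were born vaginally and killed within a day of birth, so age and the mode of delivery cannot be told apart here.

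The uterus forms from the Müllerian ducts. A simple epithelium lies on a stroma of mesenchymal origin inside a coat of smooth muscle, and endometrial glands grow from buds of the luminal epithelium into that stroma late in gestation in primates. Steroid hormones of the mother and placenta reach the fetal uterus, and their level, like that of fetal cortisol, changes toward term.

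Levels are log2 signals on a common scale on which the 75th percentile of every array is 12.62, and a difference is the mean of the GD165 arrays minus that of the GD100 arrays. A probe was called when limma's two-sided test gave a Benjamini-Hochberg adjusted p under 0.01 over all 20217 probes. Between 83.75 and 89.01% of spots were well above background on the 9 arrays, and the median ratio of signal to background was 17.56 to 23.72. A gene that was not called may still differ between the ages. Müllerian markers were bright at both ages, with HOXA11 at 15.17 and 14.99 and EMX2 at 15.14 and 15.08 at GD100 and GD165, although the probe for PGR, the progesterone receptor, was well above background on 0 of the 9 arrays. The paper did find its protein by staining, in a larger share of nuclei in GD165 than in GD100 controls.

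Probes on this array are 60 bases long. The first 30 bases of the probes for 8 genes are shown because the classes described next turn on them: a mitotic kinesin, an RNA-binding protein and a chromatin protein of growing tissue, a synaptic adhesion protein, and the genes of hormone response, contraction and glands with clear rises. They are written 5′ to 3′ as the array's own annotation gives them, with no part set off in capitals, and no position is given because that annotation mixes genome builds.
KIF11: ttcagcttgaagaaccaaagcacttagaag
UHRF1: tagggaagaatgagacaattttgtgtaggc
IGF2BP1: aatggattaactacctcaatccttacagta
LRRTM3: ttgttactgcttttgtgcccagaaaccttg
KLF9: tttagcacagtactcatcactctggataga
OXTR: agaaggggattaccttgtaagaccatctgg
PLN: gaattctctctccaaatattaactaattct
CLDN10: gtaagaaactgtctgatatgaatcacaaca

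Over all probes 6.32% were called higher and 5.2% lower at GD165, 2.74% and 1.78% with a change of at least 2-fold, and the median difference was 0.00. Among the 16370 probes well above background on every control array, 7.26% were higher and 6.16% lower. The 71 gene lists examined here held 2367 genes of the array, of which 275 were higher and 242 lower. They divided by class. Genes of growth were called lower in 119 of 246 (48.4%) and higher in 9, with a median difference of −0.48, and their lists differed among themselves. Genes of immunity were higher in 73 of 402 (18.2%) and lower in 2 (0.498%), with a median of 0.39. Lists of tissue compartments (76 higher and 44 lower of 545), of hormones and patterning (70 and 29 of 491), of matrix (26 and 20 of 198) and of ion and water transport (14 and 9 of 130) held rises and falls together. Genes of biosynthesis and metabolism lay at the background, with 21 higher and 24 lower of 420 and a median of −0.09.

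**Figure D1:**
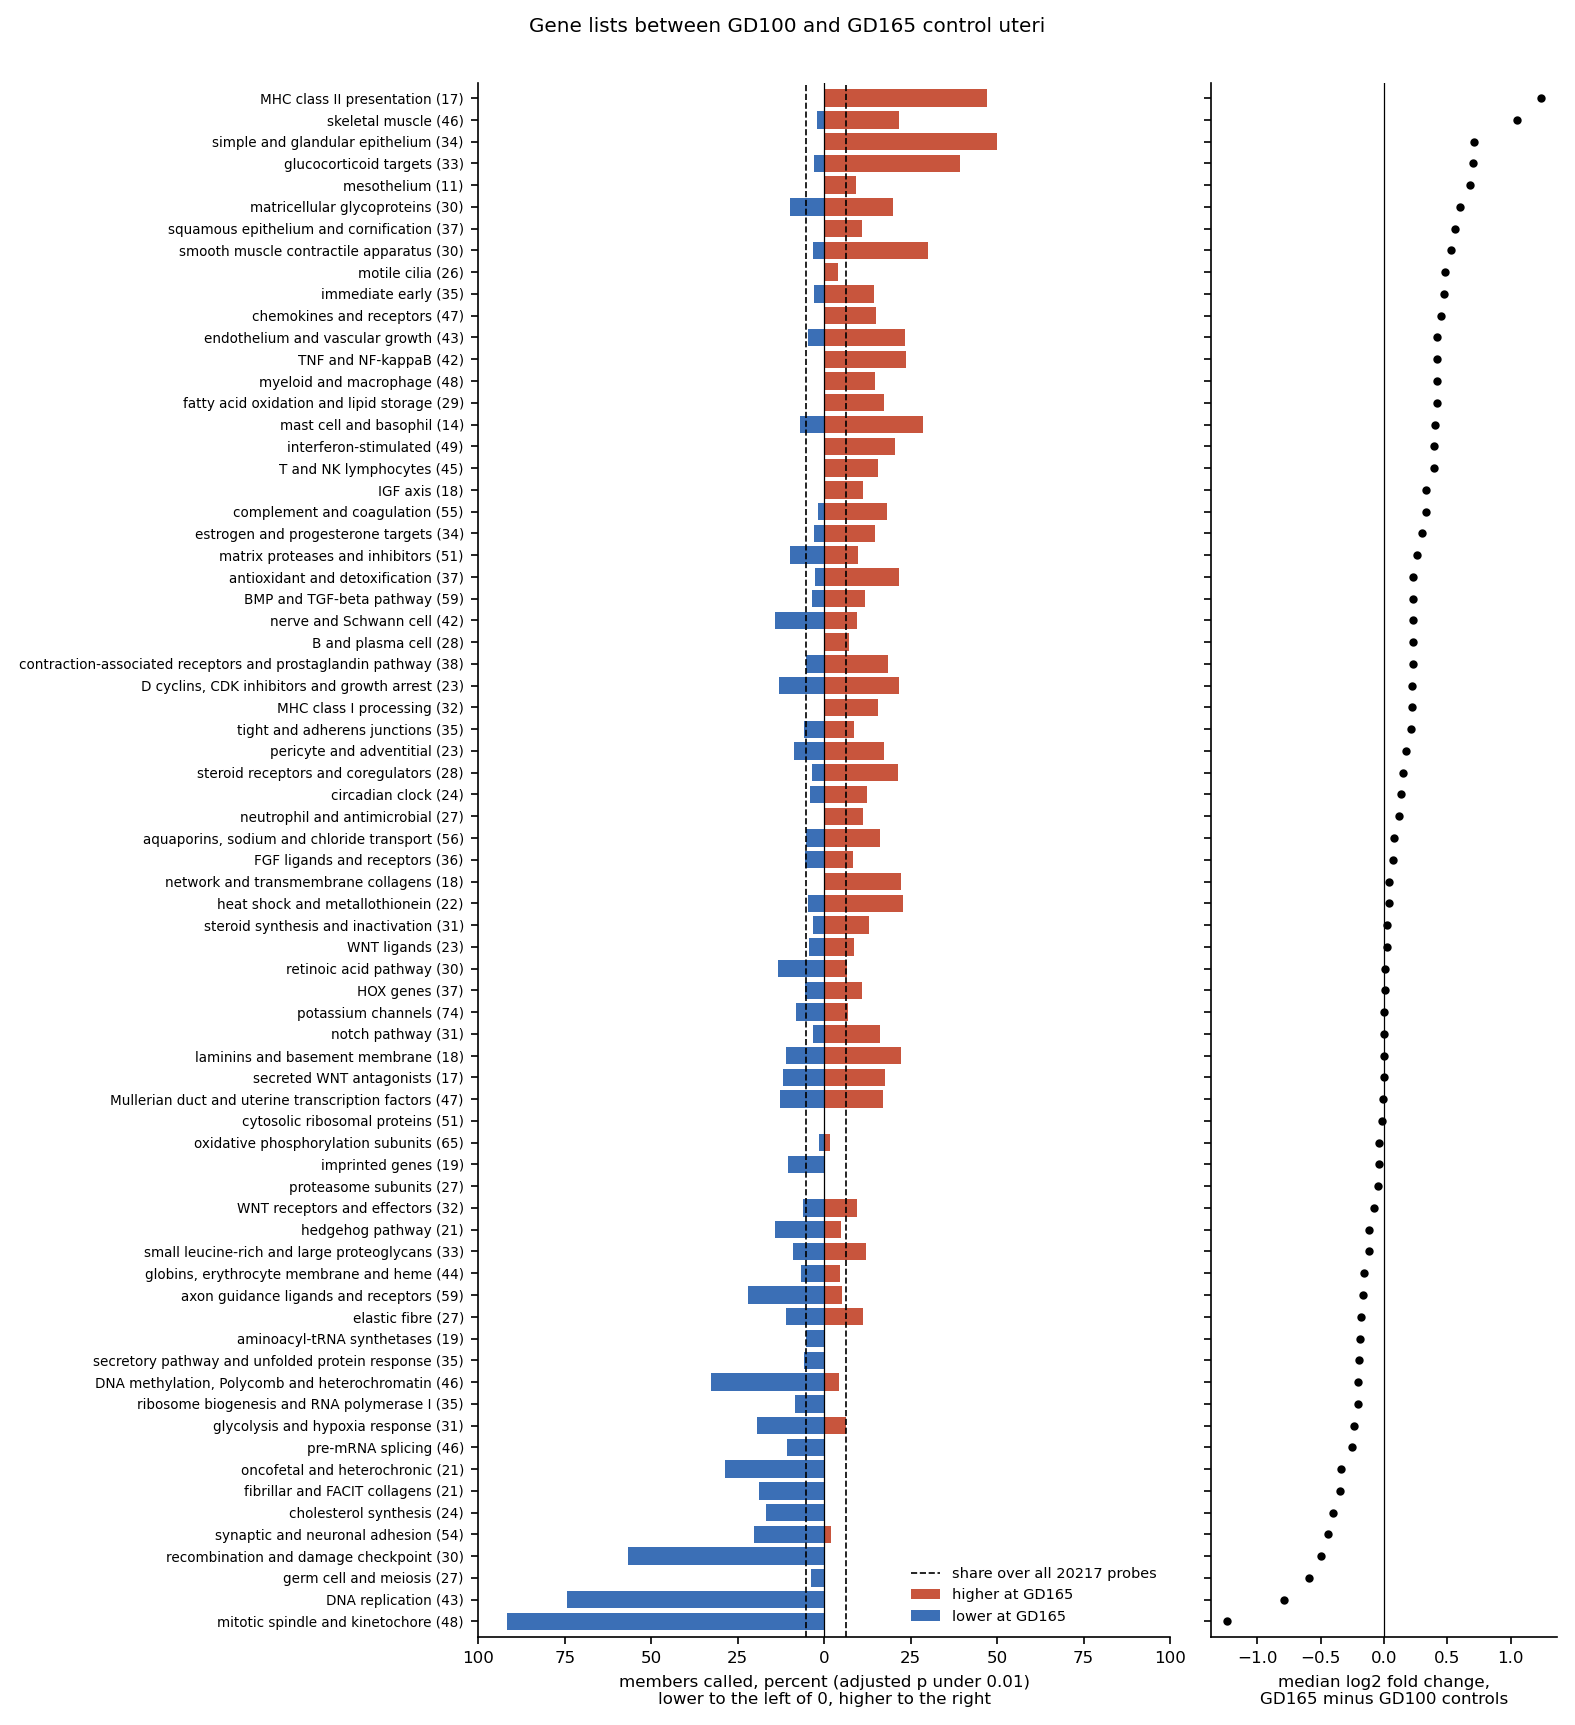
Share of the measured members of 71 gene lists (number of members in brackets) called higher (right, red) or lower (left, blue) at GD165 in control uteri, with the shares over all 20217 probes as dashed lines at 6.32% and 5.2%, and the median log2 difference of each list in the right panel. Lists are ordered by their median, from mitotic spindle at −1.24 to MHC class II presentation at 1.24.

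Genes of cell division were lower at GD165. In the list of spindle and kinetochore genes, 44 of 48 (91.7%) were lower, 37 of them at least 2-fold, and 0 were higher. KIF11, the kinesin that pushes spindle poles apart, was at 9.87, 9.88, 10.03, 9.87 and 10.04 on the GD100 arrays and at 8.60, 8.34, 8.82 and 8.54 on the GD165 arrays. The groups did not overlap. KIF11 fell by 1.36 on the log2 scale, or 2.57-fold, with a standard error of 0.12 and a limma adjusted p of 8.5e-06. Kinesins KIF4A, KIF2C and KIF15 fell by 1.58, 1.53 and 1.50, and ZWINT, a kinetochore linker, fell by 1.63. The 4 members that were not called were CENPH (−0.30), NUF2 (0.01), HMMR (−0.89) and SGO1 (−1.05). Standard errors of NUF2 and HMMR were above 1, at 1.08 and 1.22, against 0.12 for KIF11. As a score for each array, each gene's level was centred on its mean over the 17 arrays and then averaged over the list. This score lay between 0.34 and 0.46 at GD100 and between −0.98 and −0.39 at GD165. Within the GD165 group, replicate 5 (−0.39) and replicate 3 (−0.98) were the highest and the lowest. In whole tissue a smaller number of dividing cells and less of these transcripts in each cell cannot be told apart. The paper stained uteri of the same groups for Ki-67, a protein of proliferating cells, and saw no significant decrease at GD165. Its counts were made in selected regions of luminal epithelium and stroma, whereas the RNA also held muscle. Stillborn animals were left out of the paper's arrays, so the stained animals need not be the same. The paper leaves the impact of the lower cell cycle genes uncertain.

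DNA replication genes followed, with 32 of 43 (74.4%) lower, 0 higher and a median difference of −0.79. CDC45, a part of the replicative helicase, fell by 1.49, TYMS and RRM2, which supply deoxynucleotides, fell by 1.34 and 1.31, and CDC6, which loads the helicase at origins, fell by 1.20 (adjusted p = 1.7e-04). PCNA, the sliding clamp, fell by 0.81, although its groups overlapped. MCM6 and MCM10 were not called, at −0.24 and −2.63 with standard errors of 0.50 and 1.04. Recombination and checkpoint genes were lower in 17 of 30 (56.7%) and higher in 0, with BRIP1, a helicase of crosslink repair, at −1.72 and RAD54L, a recombination motor, at −1.55. On every control array of GD165 the score of the replication list (−0.87 to −0.13) was below those of GD100 (0.24 to 0.43). Histone genes, which formed a family by symbol and were in no list, were lower in 11 of 42 and higher in 0, with a median of −0.49.

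Regulators of the cell cycle moved both ways. Among 23 D cyclins, CDK inhibitors and arrest genes, 5 were higher (3 without GD100 replicate 3 or GD165 replicate 1 or 6) and 3 lower. GADD45A, induced by growth arrest, was at 11.11, 11.71, 11.23, 11.20 and 11.64 at GD100 and 13.43, 12.93, 12.61 and 13.95 at GD165. The groups were apart by 1.85 (standard error 0.22, limma adjusted p = 4.6e-05). GADD45G (1.75), CDKN2B (1.50) and BTG2 (1.03) also rose. CDKN2B encodes the CDK4 and CDK6 inhibitor p15, yet the related inhibitors CDKN2C and CDKN2D fell by 0.87 and 0.82, as did CCND2, a D cyclin, by 0.81. CDKN1A, which encodes p21, was not called (0.75, adjusted p = 0.0141).

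Chromatin genes were more often lower. Of 46 genes of DNA methylation, Polycomb and heterochromatin, 15 (32.6%) were lower and 2 (4.35%) higher. UHRF1, which brings maintenance methylation to new DNA, was at 12.07, 11.83, 12.29, 12.13 and 11.71 at GD100 and at 9.88, 10.56, 10.85 and 9.31 at GD165. It fell by 1.85 (standard error 0.24, adjusted p = 9.8e-05), and the GD165 animals were spread over a wider range than those of GD100. LMNB2 and LMNB1, the B-type lamins of the nuclear envelope, fell by 1.47 and 1.37, and DNMT1, the maintenance methyltransferase, by 0.47. The Polycomb methyltransferases moved in opposite directions. EZH2 fell from 11.60 ± 0.18 (SD, n = 5) to 10.54 ± 0.23 (SD, n = 4), by 1.06, while EZH1 rose by 0.48 (adjusted p = 0.00245) and CBX7, a reader of their mark, rose by 0.96.

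Fetal growth genes were lower in part. Oncofetal and heterochronic genes, which are typical of embryonic tissue, were lower in 6 of 21 (28.6%) and higher in 0. IGF2BP1, an RNA-binding protein of fetal tissue, was at 5.05, 5.12, 5.05, 4.93 and 4.44 at GD100 and at 2.46, 2.90, 2.55 and 1.73 at GD165, where it was well above background on 0 of 4 arrays. Its GD165 signal was at least 2.35-fold lower when set against the dimmest probe well above background on each array (limma adjusted p = 1.9e-05). Its relative IGF2BP3 was bright at both ages and fell by 1.20, with GD100 arrays between 13.62 and 13.71 and GD165 arrays between 12.28 and 12.59. GPC3, a growth-restraining glypican, fell by 1.08. Of 19 imprinted genes 2 were lower, MEST (15.56 ± 0.15 to 14.40 ± 0.09, a fall by 1.16) and MAGEL2 (−0.65), and DLK1 was not called (0.86, adjusted p = 0.0738). In the insulin-like growth factor axis 2 of 18 were higher, the binding proteins IGFBP6 (1.31) and IGFBP7 (0.91), and IGF1 itself was at 0.74 (adjusted p = 0.043).

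**Figure D2:**
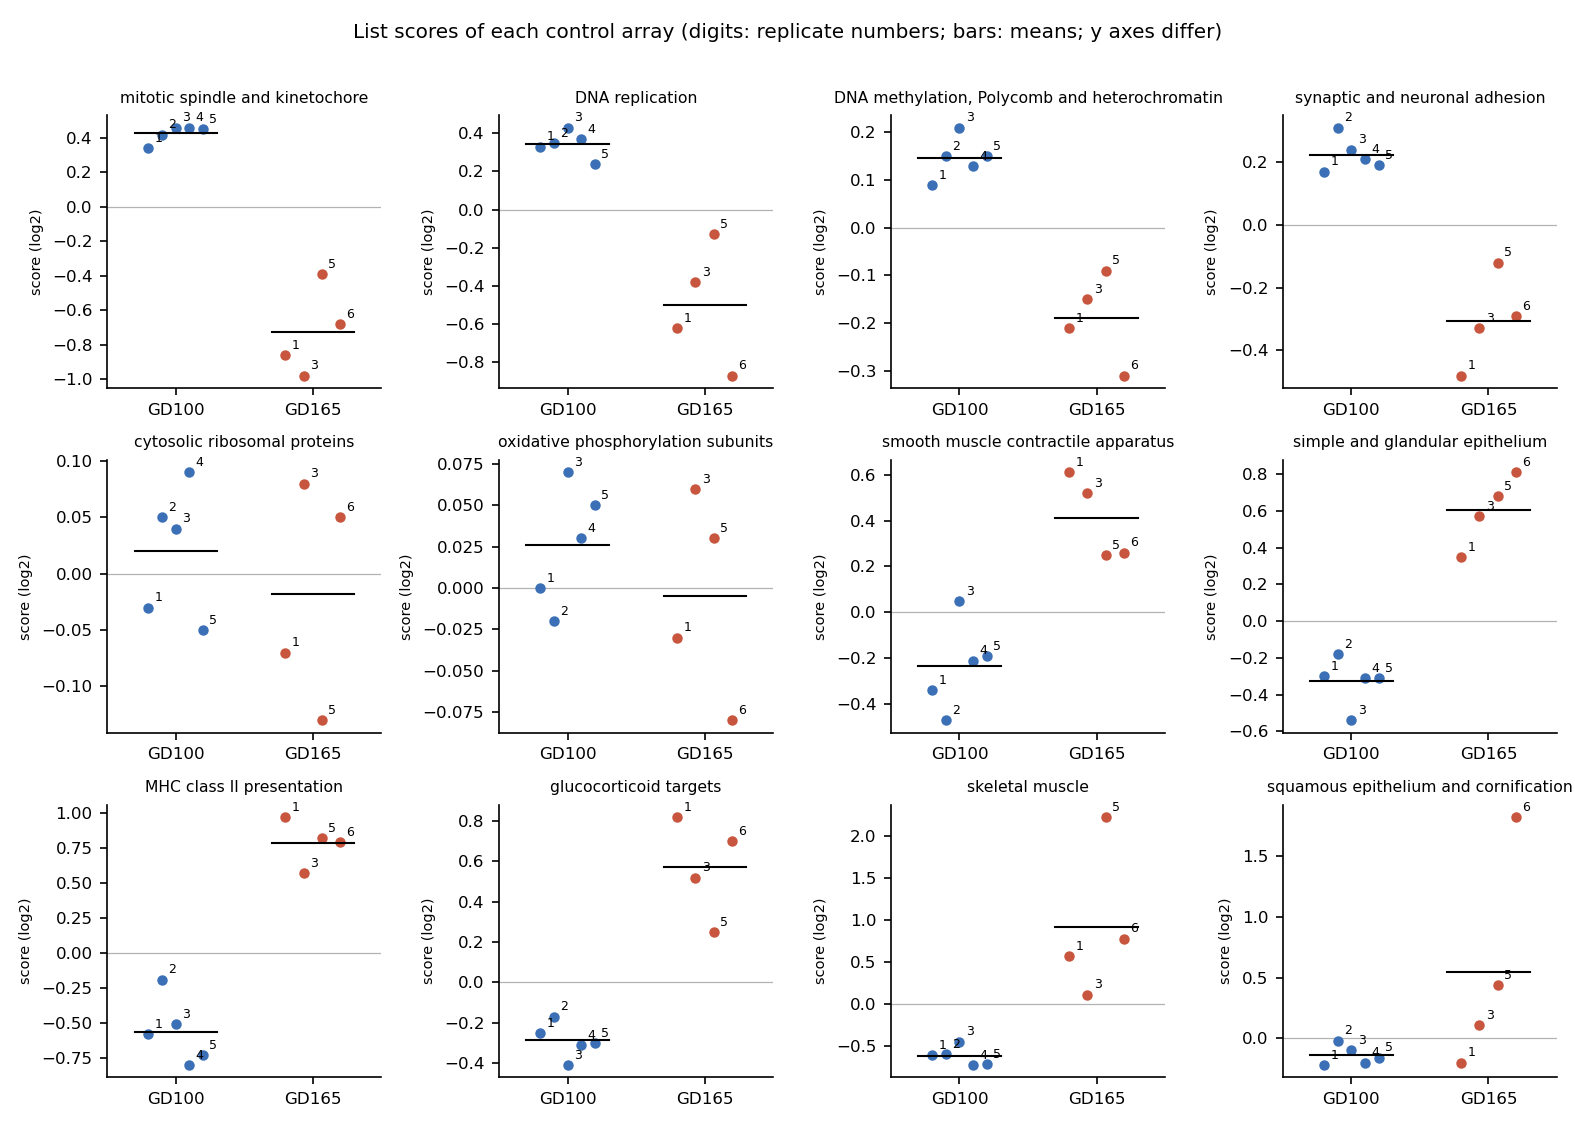
Scores of 12 gene lists on each of the 9 control arrays, in log2 units relative to the mean over all 17 arrays, with GD100 in blue and GD165 in red, replicate numbers beside the points and a bar at each mean. Scores of spindle, replication, chromatin, glandular epithelium, MHC class II and glucocorticoid target lists do not overlap between ages, those of ribosomal proteins and oxidative phosphorylation do, and the skeletal muscle and squamous lists each have 1 GD165 animal far above the rest, at 2.23 and 1.82.

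Among 51 cytosolic ribosomal proteins, 0 were called in limma's test, 3 had groups that did not overlap against 19.4% over all probes, and the median was −0.02. Proteasome subunits gave 0 of 27 and a median of −0.05, and oxidative phosphorylation subunits 1 higher and 1 lower of 65 and a median of −0.04. The 2 were COX7A1, the muscle form of a cytochrome c oxidase subunit (0.58), and COX7C (−0.98), whose probes differed in sign. Ribosome biogenesis genes were lower in 3 of 35 with a median of −0.21, and in 0 to 6 with a control animal left out (6 without GD165 replicate 5). Splicing genes were lower in 5 of 46, with SRSF10 at −0.55 and TRA2B at −0.53, but 43 of 46 had a negative difference and in 20 (43.5%) the ages did not overlap. Their count was 10 without GD165 replicate 5 and 3 without GD165 replicate 1 or 6, and the median was −0.25. Mitochondrial ribosomal proteins of the large subunit were lower in 1 of 46.

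Metabolic genes differed by pathway. Cholesterol synthesis genes were lower in 4 of 24 (16.7%) and higher in 0, with a median of −0.40. Their count was 9 without GD165 replicate 5, 7 without GD100 replicate 5 and 2 without GD100 replicate 1, 2, 3 or 4 or GD165 replicate 1 or 6, and in the exposed fetuses it was 15, with a median of −0.65. SQLE, squalene epoxidase, fell by 1.16. Glycolysis and hypoxia genes were lower in 6 of 31 (19.4%), in 3 without GD100 replicate 4 or GD165 replicate 1, and higher in 2, with CA9, a carbonic anhydrase induced by hypoxia, at −1.16, ALDOC, an aldolase, at −1.01, and NDRG1 and ADM higher at 1.12 and 0.93. Lipid uptake and oxidation genes were higher in 5 of 29 (17.2%), in 3 without GD100 replicate 4 or GD165 replicate 6, and lower in 0. CD36, a fatty acid transporter, rose by 2.18 and CPT1A, the gate to mitochondrial oxidation, by 1.18. FABP4, a lipid carrier of fat cells and capillaries, was at 8.82, 7.51, 9.12, 8.17 and 7.04 at GD100 and at 10.59, 10.19, 11.15 and 14.86 at GD165. Its difference of 3.57 (adjusted p = 0.00676) came with 1 GD165 animal, replicate 6, far above the others, and was 2.51 (adjusted p = 0.0133) without it. PDK4, the kinase that turns pyruvate away from oxidation, was at 2.35 but not called (adjusted p = 0.0137).

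Detoxification and stress genes rose in part. Of 37 antioxidant and detoxification genes 8 (21.6%) were higher and 1 was lower. MAOB, which degrades amines, rose by 2.24 (adjusted p = 1.6e-05), its relative MAOA by 0.70 and SOD3, the extracellular superoxide dismutase, by 0.95, and GSTA4 fell by 0.49. In the list of chaperones and metallothioneins 5 of 22 were higher (2 without GD100 replicate 1 or GD165 replicate 1 or 6, and 3 without GD100 replicate 2 or 4 or GD165 replicate 3 or 5), with the small heat shock proteins of muscle HSPB8 (1.58), CRYAB (1.44) and HSPB7 (0.96) ahead of MT1X (0.66), and HSPD1, a mitochondrial chaperone, fell by 0.39.

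Matrix genes were called in both directions. Fibrillar and associated collagens were lower in 4 of 21 (19%) and higher in 0, among them COL19A1 (−1.43), COL16A1 (−0.85) and COL5A1 (−0.70), but the main fibrillar chains COL1A1 (−0.20), COL1A2 (−0.05) and COL3A1 (−0.05) were not called. Network and transmembrane collagens were higher in 4 of 18 (22.2%), in 2 without GD100 replicate 1 or 4 or GD165 replicate 6, and lower in 0. COL4A4, a basement membrane chain, was at 7.04, 8.27, 7.58, 7.98 and 6.74 at GD100 and at 12.78, 10.40, 9.46 and 11.21 at GD165. The groups did not overlap, and the difference was 3.44 (standard error 0.69, limma adjusted p = 0.00239) with a wide spread among the GD165 animals. COL4A3, its partner in the collagen IV trimer, rose by at least 2.53-fold and was well above background on 0 of 5 GD100 and 3 of 4 GD165 arrays.

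Among the elastic fibre genes 3 of 27 were higher and 3 lower. The fetal fibrillins FBN3 and FBN2 fell by 2.30 and 0.96 and FBLN1 by 0.79, whereas MFAP5, a microfibril protein, rose by 1.83. Proteoglycan genes were higher in 4 of 33 (12.1%), in 2 without GD100 replicate 3 or 5 or GD165 replicate 6, and lower in 3 (9.09%). VCAN, the large proteoglycan of growing tissue, fell by 0.96 (adjusted p = 4.2e-05) and GPC2 by 1.68, and the keratan sulfate proteoglycan OMD rose by 2.22. Laminin and basement membrane genes were higher in 4 of 18 (22.2%) and lower in 2 (11.1%). The count of higher genes was 1 without GD165 replicate 6 and 2 without GD100 replicate 1, 2 or 4. The epithelial laminin chains LAMB3 (0.79) and LAMA3 (0.65), which anchor epithelium, rose. NTN4 rose by 1.91, and LAMA1, an early embryonic chain, fell by 1.25 with overlapping groups. Matricellular genes were higher in 6 of 30 (3 without GD165 replicate 6) and lower in 3, led by MGP, an inhibitor of calcification, at 2.17 and FGL2 at 2.08, while FN1, fibronectin, fell by 0.51. Of 51 matrix proteases and inhibitors 5 rose and 5 fell. MMP11, a stromal metalloprotease, was at 14.21, 13.84, 14.39, 14.27 and 14.56 at GD100 and at 17.13, 17.19, 15.88 and 17.60 at GD165. It rose by 2.70 (standard error 0.30, adjusted p = 3.2e-05), and all 4 GD165 arrays were above all 5 of GD100. The ADAMTS proteases went the other way, with 4 of 19 family members lower and 0 higher, ADAMTS19 by 1.58, ADAMTS7 by 1.14 and ADAMTS4, which cleaves versican, by 1.03.

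Smooth muscle genes were higher in 9 of 30 (30%) and lower in 1. PLN, phospholamban, which restrains calcium uptake into the sarcoplasmic reticulum, was at 7.06, 6.85, 6.88, 6.13 and 6.65 at GD100 and at 9.69, 9.89, 8.24 and 10.49 at GD165. The groups did not overlap. PLN rose by 2.87 ± 0.37 (SE), or 7.29-fold (adjusted p = 9.5e-05). SYNM, an intermediate filament protein, rose by 1.96, PDLIM3 by 1.67 and CNN1, a late marker of smooth muscle differentiation, by 1.28. Core contractile genes were not called: MYH11 was at 0.42 (adjusted p = 0.0402), ACTG2 at 0.37, ACTA2 at 0.26 and DES at 0.19. The median of the list was 0.53.

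Receptors and channels of uterine contraction were higher in 7 of 38 (18.4%) and lower in 2. The count of higher genes was 3 without GD100 replicate 2 or 4 or GD165 replicate 1 and 4 without GD165 replicate 3 or 6. OXTR, the oxytocin receptor, was at 10.93, 9.90, 10.00, 9.40 and 9.59 at GD100 and at 13.47, 12.34, 11.95 and 13.44 at GD165. Every GD165 array was above every GD100 array, by 2.84 on average (standard error 0.35, adjusted p = 6.2e-05), or 7.15-fold. PTGER3, a prostaglandin E receptor that promotes contraction, rose by 1.82 with overlapping groups, ADRA2A, an adrenergic receptor, by 1.38, RYR3, a calcium release channel, by 1.37, KCNMA1, the large calcium-activated potassium channel, by 1.27 and GJA1, the gap junction protein of myometrium, by 0.62. The vasopressin receptor AVPR1A and the calcium channel CACNA1D fell by 0.84 and 1.45. PTGFR, the receptor for prostaglandin F, was at 1.43 but not called (adjusted p = 0.0235), and PTGS2, the inducible cyclooxygenase, was at −0.04.

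Skeletal muscle genes were also higher, and differed widely between animals. Of 46 such genes 10 (21.7%) were higher and 1 lower. The count of higher genes was 5 without GD100 replicate 5 or GD165 replicate 6 and 6 without GD100 replicate 2, 3 or 4 or GD165 replicate 1 or 5. The score of the list was −0.73 to −0.45 at GD100 and 0.57, 0.11, 2.23 and 0.78 in GD165 replicates 1, 3, 5 and 6. The median difference was 1.05, and 0.76 without replicate 5. MYH8, SLN, ACTA1 and MYH2, all genes of striated fibres, rose by 5.98, 5.93, 5.14 and 4.35, and the first 3 had adjusted p values of 0.0239, 0.0174 and 0.0199 without replicate 5. The defining marker CKM was well above background on 0 of 5 GD100 and 4 of 4 GD165 arrays, at least 21.2-fold higher, but was not called (adjusted p = 0.0112). The part of striated muscle in the rise of smooth muscle genes was not tested.

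In the list of simple and glandular epithelium, 17 of 34 (50%) were higher (11 without GD100 replicate 3 or GD165 replicate 6), 11 of them at least 2-fold, and 0 were lower, and the scores of the ages did not overlap (−0.54 to −0.18 and 0.35 to 0.81). CLDN10, a claudin that forms ion channels in tight junctions, was at 3.53, 1.39, 2.85, 1.69 and 2.59 at GD100, with 0 of 5 arrays well above background, and at 6.67, 6.91, 7.65 and 8.73 at GD165, with 4 of 4. The GD165 signal was at least 13.9-fold higher (adjusted p = 3.8e-05). FOXA2, the transcription factor of endometrial glands, was at 3.59, 4.45, 3.32, 4.16 and 4.69 and then at 6.48, 5.37, 6.00 and 7.83. It rose by 2.38 (standard error 0.41, adjusted p = 8.7e-04), and every GD165 array stood above every GD100 array. SLPI, a secreted protease inhibitor, rose by 2.30, EPCAM by 1.23, PAX8 by 0.94 and KRT18 by 0.85. CDH1 was not called (0.48, adjusted p = 0.601), and the probe for KRT8 was dim at both ages, at −0.21.

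Tight and adherens junction genes were higher in 3 of 35 and lower in 2, MARVELD2 (tricellulin) by 0.66 and CLDN11 by −0.76. Genes of motile cilia were higher in 1 of 26, CAPS at 0.81, and FOXJ1, the switch for ciliation, was at 0.16. Squamous genes were higher in 4 of 37 (2 without GD165 replicate 6 and 7 without GD165 replicate 3), the desmosomal genes PERP (1.35), PKP3 (0.76), DSP (0.74) and JUP (0.56), of which JUP had a second probe of opposite sign. The keratins of squamous epithelium were not called, KRT5 at 1.26 (adjusted p = 0.0399) and KRT14 at 0.69 (adjusted p = 0.35). Scores of the squamous list overlapped, at −0.22 to −0.02 at GD100 and at −0.20, 0.11, 0.44 and 1.82 in GD165 replicates 1, 3, 5 and 6, and its median of 0.56 became 0.25 without replicate 6. CLDN10 and FOXA2 were also highest in replicate 6. Without that animal 11 rather than 17 genes of the simple and glandular epithelium list were called higher.

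**Figure D3:**
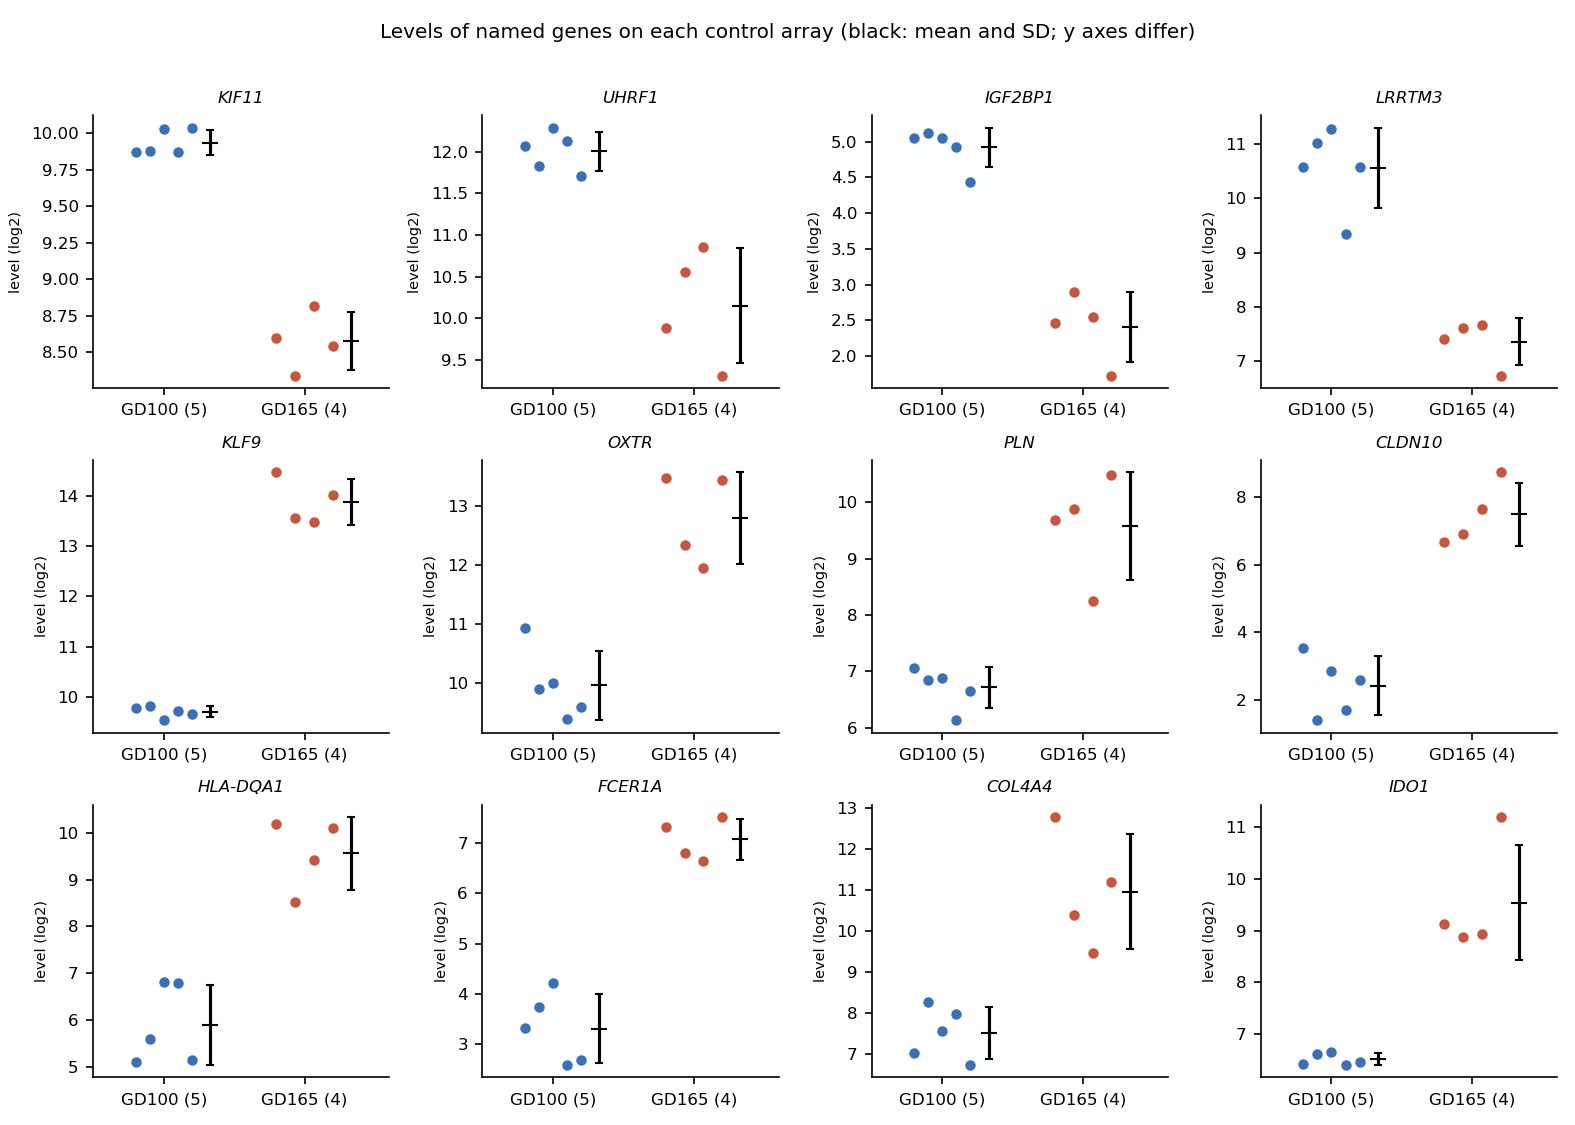
Levels (log2) of 12 genes on each control array, 5 at GD100 (blue) and 4 at GD165 (red), with the mean and SD in black and a y axis of its own for each gene. KIF11, UHRF1, IGF2BP1 and LRRTM3 are lower at GD165, and the other 8 genes are higher. The 12 genes were picked with their values known, and a gene named among the largest rises or falls had to show no overlap. That the ages do not overlap in these 12 is therefore no separate result. Over all probes the ages did not overlap in 19.4%.

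Vascular genes were higher in 10 of 43 (23.3%) and lower in 2. The count of higher genes was 4 without GD165 replicate 1 or 6 and 6 without GD100 replicate 1, 4 or 5. VWF, which endothelium stores for release, rose by 1.30, SELP by 1.44 and MMRN2, an endothelial matrix protein, by 1.26, the last 2 with overlapping groups. Growth factor FIGF (VEGF-D) fell by 1.67, while PECAM1 (0.44) and CDH5 (0.21) were not called. This list depended on the animals compared: its median was 0.42 over the 9 arrays, −0.06 between the GD100 and GD165 arrays of slide 3 and 0.75 between those of slide 5. RGS5, the pericyte marker, rose by 1.79 (standard error 0.16, adjusted p = 8.8e-06) and did so on both slides, by 1.58 and 2.11. In the same list of pericyte and adventitial genes NT5E and C7 rose by 1.94 each, FBLN1 and PDGFRA fell, and 4 of 23 were higher and 2 lower. The count of higher genes was 1 without GD100 replicate 5 or GD165 replicate 1 or 6 and 2 without GD100 replicate 3. Among 11 mesothelial genes 1 was higher, ITLN1 (omentin) at 4.08, from 7.86 to 10.97 at GD100 to 12.31 to 15.41 at GD165, and the mesothelial markers MSLN and WT1 were at −0.05 and −0.17.

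Genes that neurons use for contact and guidance were called lower more often than higher, although most were not called. Synaptic adhesion genes were lower in 11 of 54 (20.4%) and higher in 1, and guidance genes lower in 13 of 59 (22%) and higher in 3. LRRTM3, a leucine-rich synaptic organizer, was at 10.58, 11.01, 11.28, 9.34 and 10.57 at GD100 and at 7.42, 7.62, 7.67 and 6.74 at GD165. LRRTM3 fell by 3.19 ± 0.32 (SE), or 9.14-fold (adjusted p = 1.6e-05), and the groups did not overlap. PCDH8, a protocadherin, fell by 4.60, CSMD3 by 2.82 and CDH18 by 1.76, although PCDH8 and CSMD3 were well above background on only 2 of 4 GD165 arrays. Guidance genes with lower levels were the receptor ROBO1 (−1.41) and the ligands SEMA3A (−1.22), EFNA3 (−1.19) and EFNA5 (−1.09), and SEMA3E (0.91), EPHA1 (0.79) and SEMA6A (0.54) were higher. GRIN3A, a glutamate receptor subunit among the 12 named falls, went from 12.40 ± 0.29 (SD, n = 5) to 9.74 ± 0.71 (SD, n = 4), a fall by 2.66.

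In the nerve and Schwann cell list 6 of 42 (14.3%) were lower and 4 (9.52%) higher. The median was 0.23 over the 9 arrays but −0.10 within slide 3 and −0.01 within slide 5, and the count of higher genes was 2 without GD100 replicate 1 or GD165 replicate 6. NGFR, the low-affinity neurotrophin receptor, fell by 1.22 (adjusted p = 1.9e-05), the GDNF family receptors GFRA2 and GFRA3 by 1.12 and 0.90, and NPY, a sympathetic transmitter, by 1.55. TAC1, which encodes substance P, rose by 1.86 and SNAP25, of synaptic vesicle fusion, by 1.03. Schwann cell markers SOX10 and S100B were both at −0.06 and not called. Scores of the list overlapped between ages.

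Immune genes were called higher at GD165 far more often than lower. Antigen presentation by MHC class II had the highest share of the immune lists, 8 of 17 (47.1%) higher, 5 without GD100 replicate 4 or 5 or GD165 replicate 3, and 0 lower with a median of 1.24, and scores of −0.80 to −0.19 and 0.57 to 0.97. CD74, the invariant chain that guides class II molecules, was at 13.55, 14.65, 13.09, 13.87 and 13.46 at GD100 and at 15.85, 15.46, 15.99 and 16.17 at GD165. It rose by 2.14 (standard error 0.36, limma adjusted p = 6.6e-04) without overlap. HLA-DQA1 was at 5.11, 5.60, 6.81, 6.80 and 5.14 and then at 10.20, 8.52, 9.43 and 10.10. Its rise of 3.67, or 12.7-fold, was 1.70 between the arrays of slide 3 and 5.07 between those of slide 5. The probe for the DR alpha chain rose by 2.22 and that for HLA-DRB5 by 1.68. HLA-DRB1 (2.21, adjusted p = 0.0113) and HLA-DPA1 (2.26, adjusted p = 0.111) were not called, nor were the transcription factors of class II promoters RFX5 (−0.01), RFXAP (−0.01) and RFXANK (−0.05). Class II genes are near copies of each other, and how far their probes share targets was not tested.

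Lists of immune cell types held smaller shares of higher genes. Myeloid genes were higher in 7 of 48 (14.6%), T and NK genes in 7 of 45 (15.6%) and neutrophil genes in 3 of 27 (11.1%), with 0 lower in each. The count of myeloid genes was 3 without GD100 replicate 2, 4 or 5 or GD165 replicate 1 and 4 without GD165 replicate 3 or 6, and that of T and NK genes 4 without GD100 replicate 5 or GD165 replicate 3 or 6. B cell genes lay near the share over all probes, with 2 of 28 (7.14%) higher, overlapping scores and medians of −0.07 and 0.27 within slides 3 and 5. LYZ, lysozyme, rose by 1.99, the inhibitory receptor LILRB1 at least 1.14-fold, from 0 of 5 arrays well above background to 2 of 4, and FCGR2B by 2.13 on a probe whose second probe did not rise. The cytotoxic genes GZMB, KLRB1 and PRF1 rose by 1.78, 1.74 and 1.35 and CD8B by 1.36. Defining markers of whole lineages did not pass the test, PTPRC at 1.20 (adjusted p = 0.0777), CD3E at 0.52 (adjusted p = 0.188), MS4A1 at 0.96 (adjusted p = 0.294), CD14 at 0.71 (adjusted p = 0.0343) and CD68 at 0.84 (adjusted p = 0.0345).

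Of 14 mast cell genes 4 were higher and 1 was lower. Only 9 of the 14 were well above background on every control array, and of these 1 was higher and 1 lower. FCER1A, a chain of the IgE receptor, was at 3.32, 3.74, 4.21, 2.59 and 2.69 at GD100, well above background on 1 of 5 arrays, and at 7.32, 6.80, 6.64 and 7.51 at GD165, on 4 of 4. The difference was 3.76 (standard error 0.51, adjusted p = 1.4e-04). CPA3, the mast cell carboxypeptidase, rose by 3.41 with GD165 arrays between 6.04 and 8.68, and TPSD1, a tryptase, by 1.13. TPSAB1, the main tryptase, was at 0.19, KIT, the receptor on which mast cells depend, at 0.22, and neither was called, while GATA2 fell by 0.59.

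Interferon-stimulated genes were higher in 10 of 49 (20.4%), in 6 without GD100 replicate 4 or GD165 replicate 6, and lower in 0. IDO1, which degrades tryptophan, was at 6.43, 6.62, 6.65, 6.41 and 6.46 at GD100 and at 9.14, 8.88, 8.94 and 11.20 at GD165. The GD100 animals lay close together, all GD165 animals were well above them, and replicate 6 was the highest. IDO1 rose by 3.03 (standard error 0.43, adjusted p = 1.9e-04). SAMD9, TRIM22 and IRF7 rose by 2.01, 1.55 and 1.50, but ISG15 (0.45) and MX1 (0.08), which respond strongly to type I interferon, were not called. Chemokines and their receptors were higher in 7 of 47 (14.9%), among them CXCL14 (2.75), CCL11 (2.65) and ACKR1, the chemokine receptor of venules, at least 4.40-fold, and CCL18 at least 4.24-fold, both from 0 of 5 arrays well above background. TNF and NF-kappaB genes were higher in 10 of 42 (23.8%), with TNFSF10 (TRAIL) at 2.08, TNF at 1.82 and IL6 at 1.78. In the complement and coagulation list 10 of 55 (18.2%) were higher and F5 alone was lower. C4BPA, a complement inhibitor, rose by 4.56 with overlapping groups, and C7, CFB and C1S rose by 1.94, 1.94 and 0.82, while C3 was not called (1.28, adjusted p = 0.0876).

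Blood genes did not move together. In the list of globins, red cell membrane and heme genes 2 of 44 were higher and 3 lower, with a median of −0.16. HBB, adult beta globin, had the largest rise of any named gene, 6.46 (standard error 0.74, adjusted p = 4.0e-05), and the membrane protein EPB41 and TRIM10 fell by 0.42 and 2.04. The scores of this list overlapped between the ages, at −0.01 to 0.36 and −0.41 to 0.26, and the part of blood in the immune values was not tested.

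Steroid receptors and their partners were higher in 6 of 28 (21.4%) and lower in 1. KLF9, a zinc finger factor induced by glucocorticoid and thyroid hormone that acts with the progesterone receptor, was at 9.79, 9.83, 9.54, 9.73 and 9.67 at GD100 and at 14.46, 13.56, 13.47 and 14.02 at GD165. The groups were far apart, with little spread at GD100. KLF9 rose 17.9-fold, by 4.16 on the log2 scale (standard error 0.25), and its adjusted p of 7.0e-07 was the smallest among the genes named here. NR3C2, the mineralocorticoid receptor, was at 9.85, 9.87, 9.72, 9.61 and 9.72 and then at 11.27, 11.15, 11.16 and 11.59. It rose by 1.54 (adjusted p = 8.5e-06) with little spread at either age. VDR rose by 1.25, THRB by 1.02 and ESR1 by 0.73, the orphan receptor ESRRG fell by 1.37, and NR3C1, the glucocorticoid receptor, was at 0.14 and not called.

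Glucocorticoid target genes were higher in 13 of 33 (39.4%), in 8 without GD165 replicate 6, and lower in 1, with a median of 0.70 and scores of −0.41 to −0.17 at GD100 and 0.25 to 0.82 at GD165. ZBTB16, which rises with glucocorticoid and progesterone, was at 10.82, 10.61, 10.34, 11.01 and 10.45 and then at 14.50, 13.55, 13.15 and 13.55, a rise of 3.04 (adjusted p = 1.6e-04). SAA1 rose by 1.77, FAM107A by 1.15 and TSC22D3 by 0.46. Other known targets did not pass the test or did not rise: FKBP5 was at −0.34, PER1 at 0.64 (adjusted p = 0.0259), DUSP1 at 0.93 (adjusted p = 0.0169) and SGK1 at 0.91 (adjusted p = 0.0348). Estrogen and progesterone targets were higher in 5 of 34 (14.7%), in 8 without GD165 replicate 5, and lower in 1, with RERG at 1.08, FOXO1, a factor of decidual stroma, at 0.93 and IL15 at 0.74, while GREB1 (0.36) and TFF1 (0.88, adjusted p = 0.0509) were not called. Of the enzymes that make or inactivate steroids 4 of 31 were higher, SRD5A2 (1.90), AKR1C1 (1.62), AKR1C2 (1.59) and HSD11B1, which regenerates cortisol, at 1.07, and SULT1E1, the estrogen sulfotransferase, fell by 2.53.

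Immediate early genes were higher in 5 of 35 (14.3%), in 9 without GD165 replicate 5 and in 3 without GD100 replicate 2, 4 or 5 or GD165 replicate 1 or 6. Those called were ATF3 at 1.25, CTGF at 1.17, BTG2 at 1.03, ZFP36 at 0.93 and FOSB at 0.82, while FOS (0.99, adjusted p = 0.449) and JUN (0.72, adjusted p = 0.0858) were not called. Clock genes were higher in 3 of 24 and lower in 1, among them BHLHE40 by 1.29 and DBP by 0.39 against TIMELESS at −0.84, and the core genes ARNTL and NR1D1 were at −0.13 and 0.10.

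Among 37 HOX genes 4 were higher (1 without GD165 replicate 6, and 2 without GD100 replicate 1, 3 or 4 or GD165 replicate 3 or 5), all of the HOXB cluster (HOXB8 at 1.03, HOXB6 at 0.94, HOXB2 at 0.75 and HOXB5 at 0.60), and 2 were lower, HOXA9 and HOXA10, both at −0.42. HOXA10, which sets uterine identity, lay between 12.49 and 12.59 at GD100 and between 12.00 and 12.22 at GD165. The difference was small but larger than the spread at either age (adjusted p = 8.6e-04). HOXA11 was at −0.18 and not called. Transcription factors of the Müllerian duct and uterus were higher in 8 of 47 (17%) and lower in 6 (12.8%), those of epithelium (FOXA2, PAX8 at 0.94, PAX2 at 0.78) among the former and AMHR2, the receptor for anti-Müllerian hormone, at −1.24 and MEIS1 at −0.55 among the latter.

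In the WNT pathway, ligands and R-spondins were called in 3 of 23, WLS, which carries WNT proteins to the surface, at 0.93, RSPO3 at 0.53 and WNT5A at −0.55, and WNT7A (0.14) and WNT4 (−0.62, adjusted p = 0.0278) were not called. Of 17 antagonists 3 were higher and 2 lower. SFRP4 was at 9.33, 8.55, 9.23, 9.04 and 9.10 and then at 10.73, 10.39, 10.17 and 11.48, a rise of 1.64 without overlap. WIF1 rose by 2.34 (adjusted p = 1.4e-05) and FRZB by 0.85, SOSTDC1 fell by 1.58 and DKK2 by 1.27, and DKK1 was at 0.00. Receptor FZD6, of planar polarity, rose by 1.09 with CELSR1 and CELSR2 (0.48 and 0.59), while FZD2 and FZD9 fell by 0.88 and 0.66.

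In other signalling classes, BMP and TGF-beta genes were higher in 7 of 59 (11.9%) and lower in 2. The count of higher genes was 2 without GD100 replicate 3 and 3 without GD100 replicate 2 or GD165 replicate 1 or 6. Members called included CHRDL1, a BMP antagonist, at 1.23, TGFB2 at 0.68 and SMAD5 at −0.52. Notch genes were higher in 5 of 31 (16.1%), the ligand DLL1 at 0.87, the glycosyltransferase MFNG at 1.09 and the targets HEY1 and HES1 at 0.66 and 0.50, and HES6 fell by 1.48. Hedgehog genes were lower in 3 of 21 (14.3%) and higher in 1, with GLI3, the repressor, at −0.74, and IHH (0.06) and PTCH1 (0.45, adjusted p = 0.0375) not called. FGF genes were called in 5 of 36, FGF14 at 1.65, FGF9 at 0.60 and FGF2 at −0.40 among them. In the retinoic acid pathway 4 of 30 (13.3%) were lower and 2 higher. The count of lower genes was 1 without GD165 replicate 1 and 2 without GD100 replicate 1, 2 or 4. STRA6, the receptor for retinol uptake, fell by 1.80, RARRES1 by 1.36 and CRABP2 by 1.32, RARRES3 rose by 1.34, and the enzymes ALDH1A1 and ALDH1A2 were not called (−0.38 and −0.46).

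Channels and transporters were called in both directions. Potassium channels were lower in 6 of 74 (8.11%) and higher in 5 (6.76%). The count of lower genes was 2 without GD165 replicate 1 or 6 and 3 without GD100 replicate 3, 4 or 5, and that of higher genes was 3 without GD100 replicate 1 or 4 or GD165 replicate 1 or 3. KCNN1, a small-conductance calcium-activated channel, was at 10.35, 10.17, 10.02, 10.66 and 10.35 at GD100 and at 7.77, 8.67, 8.84 and 8.03 at GD165. It fell by 1.98 (adjusted p = 2.3e-05), and the groups did not overlap. KCNS2 fell by at least 2.61-fold to below the background limit on all 4 GD165 arrays and KCNK2 by 1.57, and KCNK6 rose by 1.48 and KCNJ12 by 0.98. Water, sodium and chloride genes were higher in 9 of 56 (16.1%) and lower in 3. SLC26A4, an anion exchanger, rose at least 4.17-fold from 0 of 5 arrays well above background, SCNN1G, a subunit of the epithelial sodium channel, by 2.19, and CLIC6 by 4.51 with GD100 arrays from 4.25 to 8.46. AQP4 and AQP11 fell by 1.71 and 0.83.

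Detection itself changed for few probes. Of 20217 probes, 16370 were well above background on all 9 control arrays and 1998 on 0. There were 25 probes, 17 of them called, that were well above background on all 4 GD165 arrays and on 0 of 5 GD100 arrays, and besides CLDN10, SLC26A4, CCL18 and ACKR1 they included GABRP (at least 9.04-fold), SLCO1A2 (at least 9.31-fold), CAPN13 (at least 9.80-fold) and IL1R1 (at least 1.86-fold). The reverse held for 5 probes, 3 of them called, CRYGC (at least 5.21-fold lower), IGF2BP1 and KCNS2. In the exposed fetuses all 25 had a positive and all 5 a negative difference between the ages. The same pattern of detection was met there by only 3 of the 25 and 2 of the 5.

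Families were also formed from gene symbols alone. Some of them, such as kinesins and HLA genes, share genes with the lists and are not separate evidence. Kinesins were lower in 10 of 29 (34.5%) and higher in 2, with a family median of −0.05. RAD genes were lower in 6 of 18 (33.3%) and higher in 1, and histones lower in 11 of 42 (26.2%) and higher in 0. HLA genes were higher in 8 of 17 (47.1%), TNF ligands in 5 of 15 (33.3%), guanine nucleotide exchange factors named ARHGEF in 6 of 18 (33.3%) and CD antigens in 11 of 79 (13.9%) with 1 lower. Genes named ZNF, most of them zinc finger factors, were higher in 3 (0.829%) and lower in 17 (4.7%) of 362, and genes named OR, mostly olfactory receptors, were higher in 1 of 285 and lower in 0.

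Fetuses of BPA-treated dams are separate animals, and their difference between the ages was set beside that of the controls. Of the 2328 probes called in controls, 2299 (98.8%) had the same sign in the exposed fetuses and 1349 (57.9%, or 69% of those called in the exposed) were called there in the same direction, while 0 were called in the opposite direction. In the exposed fetuses 9.68% of probes were called, 4.82% higher and 4.86% lower. Spindle genes were lower in 39 of 48 there, with a median of −0.98 against −1.24, and MHC class II genes higher in 6 of 17, with medians of 1.27 and 1.24. OXTR rose by 2.86 and 2.84, KLF9 by 3.75 and 4.16, and LRRTM3 fell by 3.24 and 3.19 in exposed and control fetuses. Limma's test of the difference between the age effects called 0 probes, with 1584 at an unadjusted p under 0.05 and a smallest adjusted p of 0.269.

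Some classes had unlike medians in control and exposed fetuses, a difference that was not tested for lists. The squamous list had medians of 0.56 and 0.14 and the nerve list 0.23 and −0.43. Single animals moved these values: without GD165 control replicate 6 the control medians were 0.25 and 0.12. In the exposed GD100 group the nerve score was 0.66 in replicate 1 and −0.23 to 0.17 in the others. SST, somatostatin, rose by 4.44 in controls and was at −0.80 in the exposed, and CXCL14 was at 2.75 and −0.04, CLIC6 at 4.51 and 1.01 and FABP4 at 3.57 and 1.47. In the test of the difference the smallest p values were those of COX7C (−0.98 and 0.64), CTEN (1.30 and −0.02), FLJ45436 (0.38 and −0.53), C21orf93 (0.53 and −0.85) and IL19 (2.70 and −0.34), and none of them passed after adjustment.

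**Figure D4:**
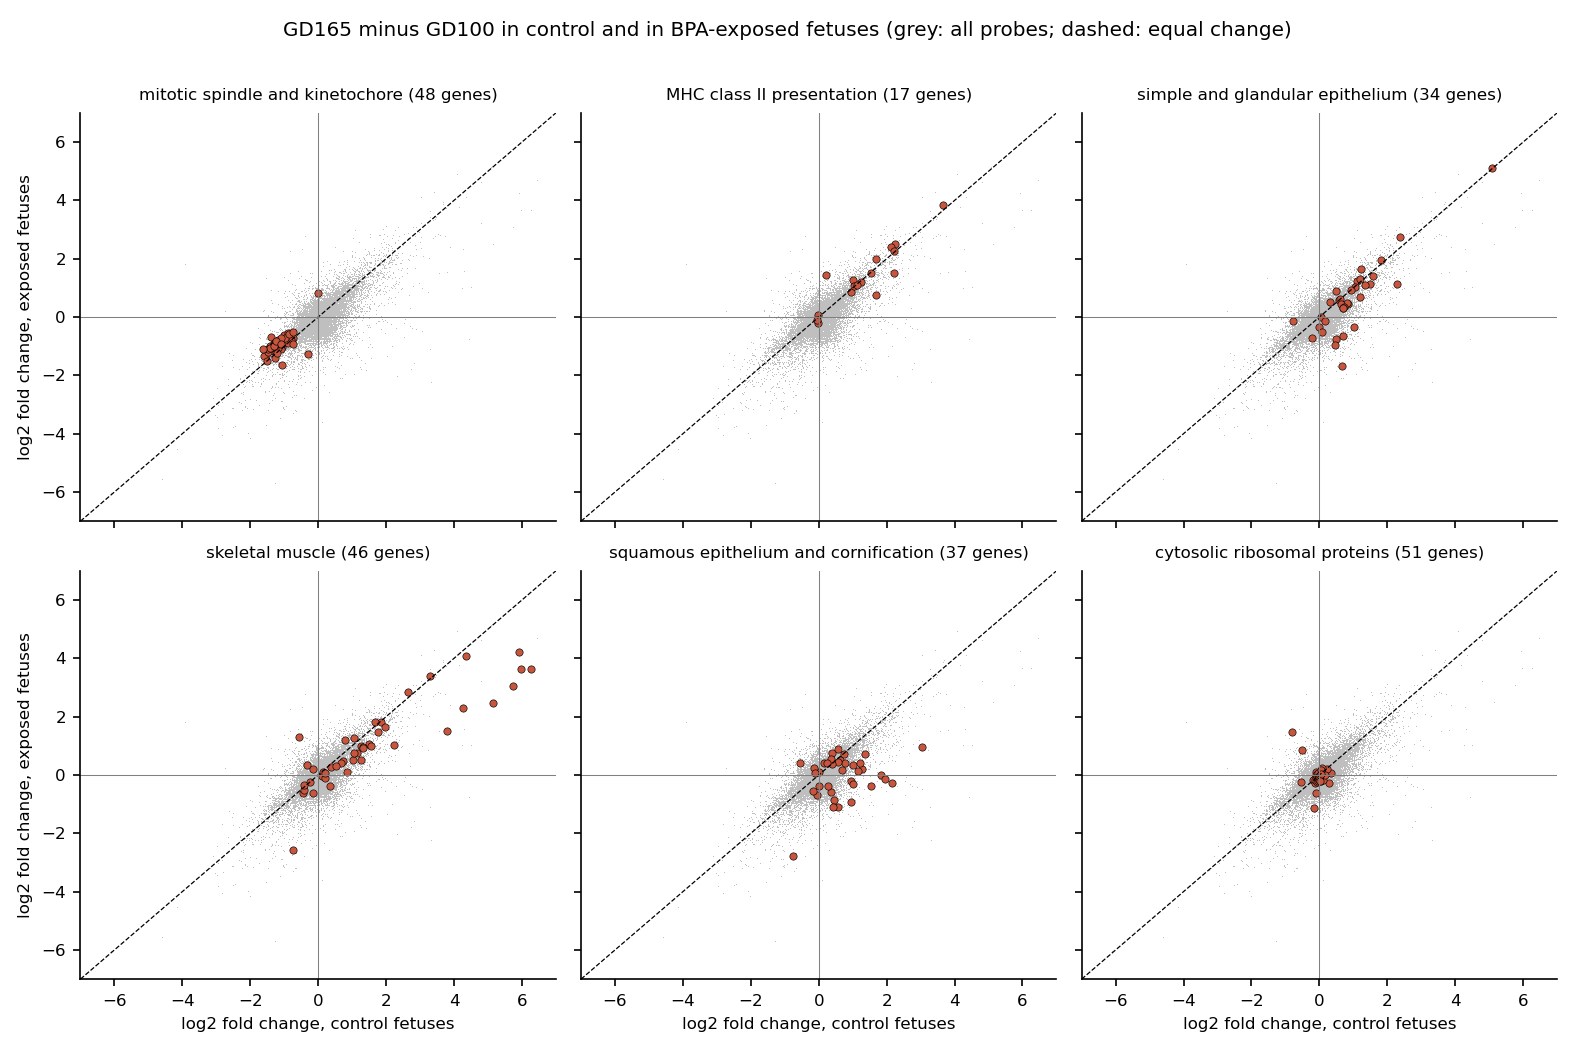
Difference between GD165 and GD100 (log2) in control fetuses (x axis) and in fetuses of BPA-treated dams (y axis) for all 20217 probes (grey) and for the members of 6 gene lists (red), with a dashed line where both are equal. The median of the control minus the exposed difference was −0.25 for spindle, −0.03 for MHC class II and 0.26 for glandular epithelium genes. This median was 0.28 for skeletal muscle, 0.65 for squamous and 0.06 for ribosomal protein genes, and positive values lie below the line.

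Slides were the only batch that the files record, and slides 3 and 5 each held 1 control array of each age. Within slide 3, 2324 of the 2328 called probes had the sign of the whole comparison, and within slide 5, 2325, though these arrays also entered that comparison. The median of the spindle list was −1.55 and −1.35 on these slides, that of glandular epithelium 1.04 and 0.58, of MHC class II 0.76 and 2.02, of glucocorticoid targets 0.65 and 0.88, of synaptic adhesion −0.24 and −0.37 and of smooth muscle 0.35 and 0.61. Many other lists held less well, and only some are named here. Squamous genes had medians of 0.13 and 0.10 within slides 3 and 5 against 0.56 over the 9 arrays. Skeletal muscle genes had 0.38 and 0.74 against 1.05, and lipid uptake and oxidation genes 0.24 and 0.12 against 0.42. Chemokines had medians of 0.08 and 0.33 within slides 3 and 5 against 0.45 over the 9 arrays. Myeloid genes had 0.19 and 0.94 against 0.42, and matrix proteases and inhibitors 0.01 and 0.46 against 0.26. KLF9 differed by 4.02 and 4.78 on the 2 slides, OXTR by 2.35 and 3.88 and UHRF1 by −1.73 and −1.83.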

How the data were processed

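RNA of 17 fetal uteri had been hybridized to Agilent single-color rhesus arrays with 2 spots for each of 20217 probes. The authors extracted the signals with Agilent Feature Extraction 9.5, and the deposited values are linear intensities from which that software had already removed background, with arrays left on their own scales. The table of all arrays held the same values as the scanner files in 711467 of 711467 cases. Here control spots and spots marked as outliers were left out, log2 intensities of a probe's spots were averaged, and each array's 75th percentile was subtracted, with their mean of 12.62 added back. No 2 arrays held identical values, and the number of arrays limits the precision.

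Names came from the array's annotation, the reference tables of gene IDs and a hand list of older symbols, which named 18789 probes (92.9%) and 17178 genes. Where a gene had more than 1 probe, the brightest over all 17 arrays stands for it in lists and families. A gene named for its rise or fall is shown by its qualifying probe with the largest change. Genes named for the difference between age effects are shown by their probe with the smallest p. Levels of different probes were not compared. Probes of opposite sign were found for 5 of 28 called named genes with several probes.

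The 4 groups of all 17 arrays entered a linear model in limma 3.58.1 under R 4.3.3 (lmFit, then eBayes) with no other terms, with contrasts for age in controls, age in exposed fetuses and their difference. The authors' error-weighted ANOVA was not repeated. Tests were two-sided with Benjamini-Hochberg adjustment over all probes at 0.01. The fit was tested on simulated data. Where every array of a group was not well above background, the fold is a bound against the lowest signal well above background on each array. Python 3.11.15 with pandas 2.3.3 and matplotlib 3.10.9 was used for summaries.

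The members, gene lists and alternatives were chosen with earlier results of these data known. The text names, by rule, up to 12 rises and 12 falls (signal of at least 50, no overlap, well above background in the brighter group), up to 4 called members in each direction and the key members of each list, the exceptions of a list and the 5 smallest p values of the difference between age effects. PDK4, DUSP1, SGK1, NR3C1, KIT and the class II genes not called were added after values were seen. Not every gene that the rule gives is printed here. Lists had no test of their own. Alternatives were other scalings, quantile normalization, no scaling, normexp with an offset of 50, a filter to 17149 probes, outlier spots kept, control arrays only, another prior, error weights, slide or replicate number as a block, other thresholds, the mean over probes and leaving out each animal. Promoter sequences were not used here.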

Additional observations from a re-analysis of the deposited data

Results flagged for a closer look

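In 190 groups of values (the list scores and the levels of the 24 genes with the largest changes, each within 1 age), 8 held an animal far from the others of its age by Dixon's ratio, and chance sets apart about 1 in 20. SST, which encodes somatostatin, was at 7.02 in GD100 control replicate 4 and between 5.06 and 5.30 in the other 4, so the lowest GD165 level of 8.42 still lay above all of them. Replicate 4 of GD100 also had a recombination and checkpoint score of 0.20 where the other 4 had 0.25 to 0.26. The score of globin, red cell membrane and heme genes was 0.36 in GD100 replicate 2 and −0.01 to 0.09 in the others. The mast cell score was −0.14 in GD100 replicate 3 and −0.41 to −0.37 in the others, below the GD165 scores of 0.18 to 0.73 in either case. The WNT ligand score was −0.23 in GD100 replicate 5 against 0.01 to 0.09. At GD165, the score of secretory pathway genes was −0.18 in replicate 6 against −0.01 to −0.00, that of neutrophil genes 0.01 in replicate 5 against 0.21 to 0.23, and that of FGF genes 0.20 in replicate 3 against 0.00 to 0.02. The cause of these values was not tested.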

How the results depend on the processing

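The count of probes called between GD165 and GD100 controls was 2328. It was 1172 with control arrays only, 1531 without scaling, 1233 with slide as a fixed block, 4279 at a threshold of 0.05 and 913 with at least 2-fold change, and it ranged from 1512 (without GD165 control replicate 6) to 2271 with a control animal left out and from 2119 to 2370 with an exposed animal left out. The numbers of the labels did not pair the animals (r of deviations 0.04, 0.03 and −0.10 for numbers 1, 3 and 5), and with the replicate number as a block the count was 958 over 17 arrays and 0 over the 9 control arrays, where 2 residual degrees of freedom remained and 3994 probes had an unadjusted p under 0.05. Of the called probes 54.9% were higher, 46.2% with scaling to the median and 47.4% with quantile normalization. The count of probes called between GD165 and GD100 BPA-exposed fetuses was 1956, and 512 with slide as a fixed block, 4255 at 0.05, 836 with at least 2-fold change and 994 to 1535 with an exposed animal left out (994 without GD165 BPA replicate 4) and 1750 to 2131 with a control animal left out. The test of the difference between age effects called 0 probes, and 1 without GD165 BPA replicate 4. Of 342 called named genes, 183 were still called with control arrays only, 170 with slide as a fixed block and 233 to 295 with a control animal left out, and 0 changed sign. The median of the endothelium list was −0.06 within slide 3, and that of the mesothelium list −0.11 within slide 3 and −0.01 with the replicate block over control arrays. With normexp the median of the T and NK list was 0.13 against 0.39, and that of chemokines 0.18 against 0.45. The cause was not tested. Counts of 3 list members or fewer also moved by over 1.5 times in several lists with a control animal left out. Dim probes limit the low genes, and 8 called probes were well above background on 0 control arrays.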
